A study of Mus musculus with 12 samples.

Results

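The genes that outer hair cells use to drive their own movement and to answer the efferent nerve were followed through the organ of Corti of clarin mutant mice. The 5 genes were chosen by name, as Slc26a5, Ocm, Chrna9, Chrna10 and Kcnn2, among the 55348 genes counted, and all 5 passed the filter on low counts. RNA was sequenced at postnatal day 21 from 4 genotypes with 3 libraries each. The tissue was the sensory epithelium of the cochlea after the stria vascularis and the modiolus had been taken away. Wild-type mice carried both clarin genes. Clrn1-/- mice carried a constitutive deletion of Clrn1 exon 4 made with PGK-cre, which acts in the whole animal from the embryo on, and Clrn2-/- mice carried the clarinet nonsense mutation of Clrn2, likewise in every cell. Clrn1-/-Clrn2-/- mice were obtained by crossing these lines and carried both mutations. The wild-type mice came from breedings of their own, so breeding and genotype cannot be told apart in any comparison with wild-type. Whether a library holds the organs of 1 mouse or of several is not given in the sources used here, and p-values therefore measure only the spread between these libraries.

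Outer hair cells amplify sound by changing their length with each cycle of the receptor potential, and the membrane protein that does this work is prestin, encoded by Slc26a5. Their cytoplasm is filled with oncomodulin, a small EF-hand calcium buffer of the parvalbumin family encoded by Ocm. The brain turns this amplifier down through cholinergic medial olivocochlear fibres. Acetylcholine opens a receptor made of the subunits encoded by Chrna9 and Chrna10, calcium enters, and the calcium-activated potassium channel SK2, encoded by Kcnn2, hyperpolarizes the cell. Chrna9 and Chrna10 are not taken here as markers of outer hair cells alone, whereas prestin and oncomodulin mark outer hair cells in the mature cochlea.

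Relative to wild-type, the 5 genes did not move as a block. Ocm and Chrna9 were higher in all 3 mutants, by 1.42-fold to 1.98-fold. Slc26a5 was higher in Clrn2-/- and Clrn1-/-Clrn2-/- mice, by 1.45-fold and 1.46-fold. Chrna10, the partner subunit of Chrna9, was lower in Clrn1-/- mice, by 1.70-fold, and in Clrn1-/-Clrn2-/- mice, by 1.38-fold. Kcnn2 was lower in all 3 mutants, by 1.14-fold to 1.33-fold. These changes had adjusted p-values of at most 0.05 in edgeR's quasi-likelihood test, and only those of at least 1.5-fold were also called by the fold threshold of the study.

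Of these genes, 3 lie on chromosome 5 of the mouse genome (GRCm38, Gencode M21). Slc26a5 (ENSMUSG00000029015.9) runs from 21810655 to 21865604 on the minus strand, Chrna9 (ENSMUSG00000029205.12) from 65934921 to 65977326 on the plus strand, and Ocm (ENSMUSG00000029618.13) from 144019804 to 144026670 on the minus strand. Chrna10 (ENSMUSG00000066279.3) occupies positions 102111266 to 102116828 of chromosome 7, minus strand. The exons of Chrna10 share 1025 bases with those of Art1 on the opposite strand, and those of Kcnn2 share 323 bases with the transcribed pseudogene AC121957.1 and 284 bases with the antisense gene A330093E20Rik, both on the opposite strand. The libraries and the counts used here kept strand, so reads from these neighbours were counted apart.

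The 250 bases before the annotated start are shown for the receptor subunits, which moved in opposite directions, and for the motor gene. They are given on the strand of the gene from 5′ to 3′, from RefSeq on GRCm38.p6, and capitals mark E-boxes (CANNTG), the sites that basic helix-loop-helix factors such as ATOH1 bind. The stretch of Chrna9 spans chr5:65966874-65967123 on the plus strand, that of Chrna10 chr7:102116714-102116963 on the minus strand and that of Slc26a5 chr5:21865605-21865854 on the minus strand. Each ends 1 base before the start of a Gencode transcript of the gene.
Chrna9: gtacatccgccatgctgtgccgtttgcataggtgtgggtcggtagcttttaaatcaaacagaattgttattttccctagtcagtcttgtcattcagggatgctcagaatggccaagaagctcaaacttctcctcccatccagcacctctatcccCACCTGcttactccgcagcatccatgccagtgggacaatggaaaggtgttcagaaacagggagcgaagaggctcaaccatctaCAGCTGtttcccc
Chrna10: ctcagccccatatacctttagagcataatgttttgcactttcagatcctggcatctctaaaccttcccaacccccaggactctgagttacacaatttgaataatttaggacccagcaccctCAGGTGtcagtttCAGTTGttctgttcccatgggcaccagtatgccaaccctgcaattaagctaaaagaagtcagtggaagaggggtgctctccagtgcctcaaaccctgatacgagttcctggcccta
Slc26a5: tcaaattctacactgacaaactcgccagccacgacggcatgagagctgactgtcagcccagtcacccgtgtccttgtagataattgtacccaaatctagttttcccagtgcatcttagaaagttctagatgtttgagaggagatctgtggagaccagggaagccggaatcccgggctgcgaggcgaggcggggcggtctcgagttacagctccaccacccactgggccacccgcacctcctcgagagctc

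Chrna9 and Chrna10 each held 2 E-boxes in this window and Slc26a5 held 0, where 66.2% of the 32851 promoter stretches of the same length held at least 1 on either strand. All 3 stretches held 2 matches of GGGAA, the core bound by Ikaros family factors, which was found in 56.2% of promoters. The stretch of Chrna9 held 1 match of AAATCA, the core bound by GFI1, found in 12.4% of promoters, and the other 2 stretches held 0. AGGTCA, the hexamer of nuclear receptors, and ATTAAT, a core bound by POU4F factors, were in 14.0% and 4.4% of promoters and had 0 matches in the 3 stretches. Overlaps between different motifs were allowed. The RefSeq start of Ocm lies 23939 bases upstream of the first Ocm transcript of Gencode M21, and its promoter is not shown. A match of these short letters is a description and not a binding site.

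The libraries held 30008679 to 41049302 counts on genes. The 5 genes had between 137 counts (Chrna9 in a wild-type library) and 5172 counts (Ocm in a Clrn1-/-Clrn2-/- library). Levels are given as CPM, counts scaled to the normalized library size, with SD over n = 3 libraries. Clrn1 itself was at 23.8 to 28.6 CPM in wild-type libraries and 25.8 to 31.5 in Clrn2-/-, and at 1.77 to 3.04 in the 6 libraries without exon 4. Clrn2 was at 1.89 to 3.24 CPM in wild-type and 0.921 to 1.38 in the 6 libraries with its mutation, but also at 0.854 to 1.04 in Clrn1-/-, where it is intact. Markers of hair cells of both types, such as Myo7a, summed to 375 to 412 CPM in wild-type and to 377 to 425 CPM in the mutants, and 12 of the 13 listed were counted in every library. In bulk tissue, fewer cells of a type and less RNA per cell cannot be told apart.

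Per kilobase of exon, Ocm stood far above the other genes in wild-type, at 91.6 ± 10.7 CPM per kb (SD, n = 3). Chrna10 followed at 6.18 ± 0.303, Slc26a5 at 5.61 ± 0.206, Kcnn2 at 4.32 ± 0.362 and Chrna9 was lowest at 1.34 ± 0.0761 CPM per kb. The ranges of Chrna10 and Slc26a5 touched, so that these neighbours did not differ beyond their spread. Taking the longest transcript in place of all exons put Kcnn2, at 8.77 CPM per kb, above Chrna10 (6.46) and Slc26a5 (5.82) and left Ocm first and Chrna9 last. Chrna10 was above its partner Chrna9 per length on both scales.

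Slc26a5, the motor gene, was at 16.7, 17.1 and 17.9 CPM in the wild-type libraries and at 18.6, 17.1 and 20.5 CPM in Clrn1-/-. It was at 24.0, 19.96 and 30.8 CPM in Clrn2-/- and at 24.2, 25.8 and 25.7 CPM in Clrn1-/-Clrn2-/-. Every library of the latter 2 genotypes lay above every wild-type library, whereas Clrn1-/- overlapped with wild-type. The log2 fold change was 0.53 (standard error 0.11, edgeR adjusted p = 0.00522) in Clrn2-/- and 0.55 (standard error 0.11, edgeR adjusted p = 0.00126) in Clrn1-/-Clrn2-/-. Both missed the 1.5-fold threshold. In Clrn1-/- it was 0.12, with a 95% interval from -0.13 to 0.37 and an edgeR adjusted p of 0.483. Leaving out Clrn2-/- replicate 2, the lowest of its group, raised the value in Clrn2-/- to 0.67, past the threshold.

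Ocm, the calcium buffer, was at 62.7, 62.5 and 76.2 CPM in wild-type and at 84.1, 84.9 and 117 CPM in Clrn1-/-. In Clrn2-/- it reached 123, 102 and 134 CPM, and in Clrn1-/-Clrn2-/- 122, 138 and 133 CPM. All 9 mutant libraries lay above the highest wild-type library. The log2 fold change was 0.83 (standard error 0.12, edgeR adjusted p = 2.5e-04) in Clrn2-/- and 0.97 (standard error 0.12, edgeR adjusted p = 1.2e-05) in Clrn1-/-Clrn2-/-, and Ocm was called in both. In Clrn1-/- it was 0.51 (standard error 0.12, edgeR adjusted p = 0.00549), below the 1.5-fold threshold. That last call depended on single libraries, since leaving out wild-type replicate 3, Clrn1-/- replicate 1 or Clrn1-/- replicate 2 put it past the threshold, with values between 0.34 and 0.61 over all libraries left out.

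**Figure D1:**
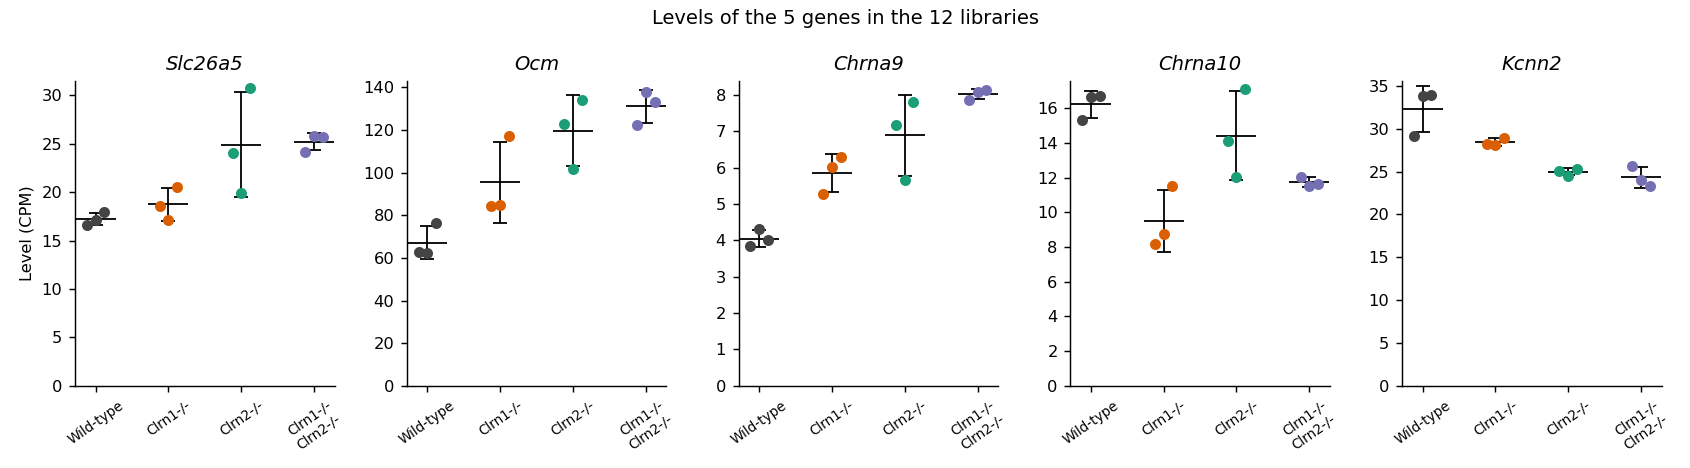
Level in CPM (vertical axes, each starting at 0) of the 5 genes in the 4 genotypes. Each point is 1 library, and bars give the mean ± SD of 3 libraries. Ocm and Chrna9 lie above wild-type in every mutant library and Kcnn2 below, whereas Chrna10 is lowest in Clrn1-/- and overlaps with wild-type in Clrn2-/-.

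Chrna9, the receptor subunit at the lower level, was at 3.85, 4.30 and 3.998 CPM in wild-type, from 137 to 158 counts. It was at 5.28, 6.003 and 6.29 CPM in Clrn1-/-, at 7.18, 5.66 and 7.81 CPM in Clrn2-/- and at 7.87, 8.08 and 8.12 CPM in Clrn1-/-Clrn2-/-. No mutant library overlapped with wild-type, and the double mutants were the highest and the most even. The log2 fold change was 0.99 (standard error 0.12, edgeR adjusted p = 6.6e-06) in Clrn1-/-Clrn2-/- and 0.77 (standard error 0.12, edgeR adjusted p = 4.1e-04) in Clrn2-/-, both called. In Clrn1-/- it was 0.54 (standard error 0.12, edgeR adjusted p = 0.00352), below the threshold, and 0.61 without Clrn1-/- replicate 1, past it.

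Chrna10, the other subunit, was at 15.3, 16.7 and 16.7 CPM in wild-type and at 8.19, 8.77 and 11.5 CPM in Clrn1-/-. It was at 14.1, 12.03 and 17.1 CPM in Clrn2-/- and at 12.1, 11.5 and 11.6 CPM in Clrn1-/-Clrn2-/-. All libraries of Clrn1-/- and of the double mutants lay below wild-type, while those of Clrn2-/- spread from below the wild-type range to above it. Chrna10 fell by 0.77 on the log2 scale in Clrn1-/- (standard error 0.12, edgeR adjusted p = 2.8e-04), which was called and held with every library left out, between -0.93 and -0.67. In Clrn1-/-Clrn2-/- the log2 fold change was -0.47 (standard error 0.12, edgeR adjusted p = 0.00667), below the threshold. In Clrn2-/- it was -0.17, with a 95% interval from -0.42 to 0.09 (edgeR adjusted p = 0.400). Its opposite-strand neighbour Art1, an ADP-ribosyltransferase gene, was also lower, at 2.25 to 5.15 CPM in wild-type and 0.180 to 1.45 CPM in the mutants. Unstranded counts, which leave out reads on exons shared with a neighbour, were 41.2% to 52.8% of the stranded counts of Chrna10. With them the log2 fold change was -0.80 in Clrn1-/- (edgeR adjusted p = 4.5e-04) and -0.34 in Clrn1-/-Clrn2-/-, which no longer passed (edgeR adjusted p = 0.0640).

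Kcnn2 (ENSMUSG00000054477.16), the potassium channel gene, occupies positions 45268860 to 45686024 of chromosome 18, plus strand. It was at 29.2, 33.8 and 33.9 CPM in wild-type and at 28.3, 28.1 and 29.0 CPM in Clrn1-/-. The level was 25.1, 24.5 and 25.3 CPM in Clrn2-/- and 25.7, 24.0 and 23.3 CPM in Clrn1-/-Clrn2-/-. The mutants did not overlap with wild-type, although the lowest wild-type library (29.2 CPM) and the highest Clrn1-/- library (29.0 CPM) were nearly level. The log2 fold change was -0.18 in Clrn1-/- (standard error 0.06, edgeR adjusted p = 0.0366), -0.37 in Clrn2-/- (standard error 0.06, edgeR adjusted p = 8.5e-04) and -0.41 in Clrn1-/-Clrn2-/- (standard error 0.06, edgeR adjusted p = 7.3e-05). None reached 1.5-fold, also with any library left out. The small change in Clrn1-/- was the least firm, as its adjusted p went above 0.05 in 8 of 20 other settings, among them scaling by library size alone (-0.14, edgeR adjusted p = 0.0977) and 6 single libraries left out. The changes in Clrn2-/- and Clrn1-/-Clrn2-/- passed in all 20.

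**Figure D2:**
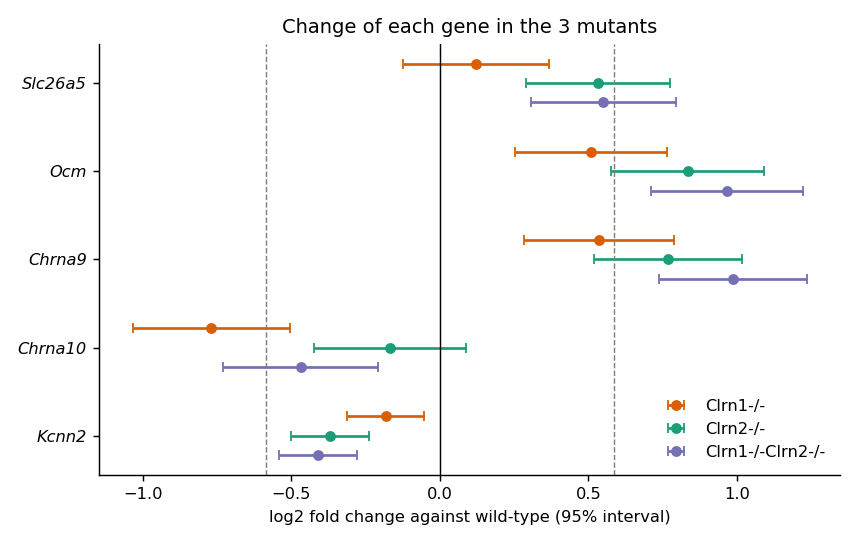
Log2 fold change against wild-type (horizontal axis) of the 5 genes in the 3 mutants, with 95% intervals from the edgeR fit. Dashed lines mark 1.5-fold in either direction. Ocm and Chrna9 pass the upper line in Clrn2-/- and Clrn1-/-Clrn2-/-, Chrna10 passes the lower line in Clrn1-/- alone, and all points of Kcnn2 lie between the lines.

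By both criteria, an adjusted p of at most 0.05 and 1.5-fold, 1 of the 5 genes was called in Clrn1-/-, where 7.22% of the 19052 genes tested were called. In Clrn2-/- 2 of 5 were called against 2.66% of all genes, and in Clrn1-/-Clrn2-/- 2 of 5 against 9.90%. By the adjusted p alone, 4, 4 and 5 of the genes passed, against 26.9%, 14.2% and 37.0% of all genes. The libraries of 4, 4 and 5 genes did not overlap with wild-type, against 40.2%, 29.0% and 48.2% of all genes. The 3 comparisons share their wild-type libraries.

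Between mutants, the receptor subunit Chrna10 gave the only call by both criteria. It was lower in Clrn1-/- than in Clrn2-/-, with a log2 fold change of -0.60 (standard error 0.13, edgeR adjusted p = 0.00356), and the libraries of these genotypes did not overlap. The call was lost, at values down to -0.46, without Clrn1-/- replicate 1, without Clrn1-/- replicate 2 or without Clrn2-/- replicate 3. By adjusted p alone, Slc26a5 was also lower in Clrn1-/- than in Clrn2-/-, at -0.41 (edgeR adjusted p = 0.0196), and Kcnn2 was higher, at 0.19 (edgeR adjusted p = 0.0471). The adjusted p of Kcnn2 went above 0.05 in 14 of 20 other settings, limma-voom and DESeq2 included, and that of Slc26a5 in 3, each with a library of these genotypes left out. For Ocm the log2 fold change was -0.33 (95% interval -0.58 to -0.07, edgeR adjusted p = 0.0697, passing in 6 of 20 other settings) and for Chrna9 it was -0.23 (95% interval -0.47 to 0.01, edgeR adjusted p = 0.173). Thus 1 of 5 genes was called by both criteria and 3 by adjusted p, where 4.73% and 18.5% of all genes were.

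Adding the loss of Clrn2 to that of Clrn1 moved 4 of the 5 genes by adjusted p. Relative to Clrn1-/-, the double mutants were higher in Slc26a5 by 0.43 on the log2 scale (edgeR adjusted p = 0.00900), in Ocm by 0.46 (edgeR adjusted p = 0.00788) and in Chrna9 by 0.45 (edgeR adjusted p = 0.00610), and lower in Kcnn2 at -0.23 (edgeR adjusted p = 0.0110). Chrna10 was at 0.30 with an interval from 0.03 to 0.57 and did not pass (edgeR adjusted p = 0.0882), although it did in 4 of 20 other settings. Without Clrn1-/- replicate 2 the edgeR adjusted p was 0.0546 for Slc26a5 and 0.0524 for Ocm, and with unstranded counts it was 0.0719 for Kcnn2. By both criteria 0 genes were called, against 7.23% of all genes, and by adjusted p 30.4% of all genes were. Adding the loss of Clrn1 to that of Clrn2 moved 0 of the 5 genes at an adjusted p of 0.05, against 27.6% of all genes, and 5.10% by both criteria. At an unadjusted p under 0.05 edgeR gave 1 gene there, Chrna10, at -0.30 (95% interval -0.56 to -0.04), and limma-voom and DESeq2 gave 0 genes by adjusted p. Chrna10 passed the adjusted test in 3 other settings, among them without Clrn2-/- replicate 2 (-0.42, edgeR adjusted p = 0.0219). The intervals of the other 4 spanned 0, from -0.22 to 0.26 for Slc26a5, -0.12 to 0.38 for Ocm, -0.02 to 0.46 for Chrna9 and -0.17 to 0.09 for Kcnn2.

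The interaction term asks whether the change in the double mutants differs from the sum of the changes in the single mutants on the log2 scale. The term includes the wild-type libraries, so breeding and genotype cannot be told apart in it either. None of the 5 genes was called for it by edgeR, limma-voom or DESeq2, against 5.50% of all genes, and at an unadjusted p under 0.05 edgeR gave 2, Ocm at -0.38 and Chrna10 at 0.47, with edgeR adjusted p-values of 0.144 and 0.0793. Chrna9 was at -0.32, Slc26a5 at -0.10 and Kcnn2 at 0.14. In value, the double mutants lay nearer to wild-type than the sum for Ocm and Chrna10. The adjusted p depended on the setting, as Ocm passed in 3 of 19 others, among them the replicate block (-0.36, edgeR adjusted p = 0.0483) and without wild-type replicate 3 (-0.49, edgeR adjusted p = 0.0440). Chrna10 passed in 5 of 19, the replicate block included (0.49, edgeR adjusted p = 0.0366), and reached 1.5-fold as well without Clrn1-/- replicate 3, without Clrn2-/- replicate 3 and with unstranded counts.

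The ratio of 2 genes within a library does not depend on how the library was scaled. There were 3.98, 3.87 and 4.18 counts of Chrna10 for each count of Chrna9 in the wild-type libraries. The ratio was 1.55, 1.46 and 1.83 in Clrn1-/-, 1.97, 2.12 and 2.19 in Clrn2-/-, and 1.53, 1.43 and 1.43 in Clrn1-/-Clrn2-/-. No mutant library came near the wild-type range, and Clrn2-/- lay above the other 2 mutants without overlap. On the log2 scale the ratio changed by -1.32, -0.94 and -1.45 in these mutants. An exact two-sided permutation test gave p = 0.1 for each, which is the smallest p that 3 against 3 libraries allow. The subunits of this receptor were thus at a lower ratio in all 9 mutant libraries.

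**Figure D3:**
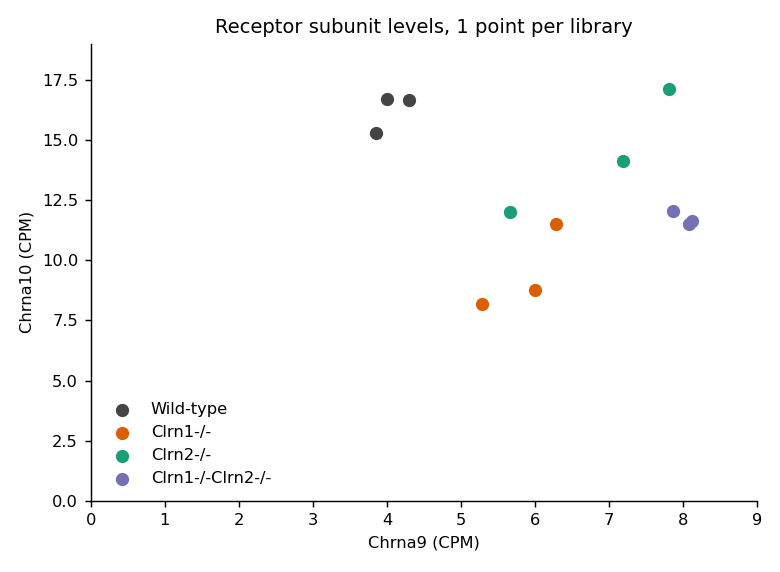
Chrna10 against Chrna9 in CPM, 1 point per library, both axes starting at 0. The wild-type libraries sit at the upper left, with Chrna9 between 3.85 and 4.30 CPM, and every mutant library lies to their right. Within Clrn2-/- and within Clrn1-/- both subunits rise together from library to library.

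Kcnn2 and Chrna9, channel and receptor of the same synapse, also drew apart. Their ratio was 7.58 to 8.48 in wild-type, 4.61 to 5.35 in Clrn1-/-, 3.24 to 4.33 in Clrn2-/- and 2.87 to 3.26 in Clrn1-/-Clrn2-/-, with no overlap with wild-type. Which cell types gave the Kcnn2 counts, hair cells or others such as neurons, was not tested in this bulk tissue. Ocm over Slc26a5, the ratio of the outer hair cell genes, went from 3.65 to 4.25 in wild-type to between 4.37 and 5.73 over the mutant libraries. It was above the wild-type range in all 9, by the least in Clrn2-/- replicate 3 at 4.37.

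**Figure D4:**
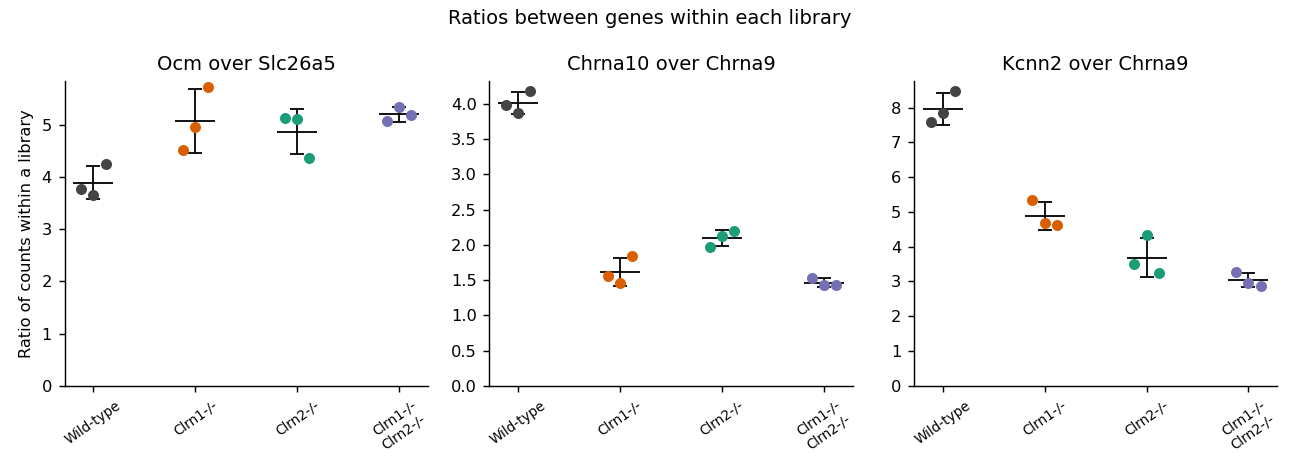
Ratio of counts within a library (vertical axes from 0) for 3 pairs of genes in the 4 genotypes. Points are libraries and bars are mean ± SD of 3. Chrna10 over Chrna9 drops from 4.01 ± 0.158 in wild-type to 1.46 ± 0.0602 in Clrn1-/-Clrn2-/-, and Kcnn2 over Chrna9 from 7.97 ± 0.463 to 3.03 ± 0.205.

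Libraries of the same genotype also differed among themselves. In Clrn2-/-, replicate 3 was the highest and replicate 2 the lowest for Slc26a5, Ocm, Chrna9 and Chrna10 alike. In Clrn1-/-Clrn2-/- this was not so, since replicate 1 was the highest for Chrna10 and the lowest for Slc26a5, Ocm and Chrna9. As a description over the 12 libraries, after taking away the mean of each genotype from the log2 levels, Chrna10 correlated with Slc26a5 at r = 0.831, with Ocm at 0.855 and with Chrna9 at 0.840. Kcnn2 correlated with these 4 genes at 0.231 to 0.413. With the genotype means left in, Chrna9 and Ocm correlated at 0.951 while Chrna10 and Chrna9 were at -0.272. These points share dissection and depth. The geometric mean of 12 hair cell markers followed the same order in Clrn2-/-, at 11.5, 10.7 and 13.4 CPM in replicates 1, 2 and 3, and its part in the spread of the 4 genes was not tested.

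That marker mean was 9.01 to 11.4 CPM in wild-type, 9.73 to 10.7 in Clrn1-/-, 10.7 to 13.4 in Clrn2-/- and 11.2 to 11.97 in Clrn1-/-Clrn2-/-. Each gene was therefore also set against it within the library. Relative to the markers, Ocm was higher by 0.51, 0.62 and 0.79 on the log2 scale in Clrn1-/-, Clrn2-/- and Clrn1-/-Clrn2-/-, and Chrna9 by 0.54, 0.55 and 0.81. Chrna10 was at -0.78, -0.39 and -0.65, and Kcnn2 at -0.17, -0.57 and -0.59. None of these 12 differences overlapped with wild-type, Chrna10 in Clrn2-/- included. Slc26a5 was at 0.13, 0.30 and 0.37, with overlap in Clrn1-/-. The exact two-sided permutation test gave p = 0.1, the smallest possible, wherever there was no overlap. These values depend on the markers chosen. Relative to 5 inner hair cell markers alone, Chrna10 was at -0.0772, -0.14 and -0.0554 and Kcnn2 at 0.53, -0.33 and 0.0046. The sign of Kcnn2 thus turned in Clrn1-/-, and in Clrn1-/-Clrn2-/- Kcnn2 was level with wild-type. Inner hair cell markers were not level between genotypes. Of these 5, 2, 0 and 1 were called in Clrn1-/-, Clrn2-/- and Clrn1-/-Clrn2-/-, all lower, against 7.22%, 2.66% and 9.90% of all genes. The median log2 fold change of these markers was -0.27, 0.04 and 0.12. Slc17a8, their vesicular glutamate transporter, was at 15.0 to 17.0 CPM in Clrn1-/- against 27.3 to 32.7 CPM in wild-type and 29.9 to 33.9 CPM in Clrn1-/-Clrn2-/-. Dnajc5b, another of the 5, was at 1.70 to 1.88 CPM in wild-type, 0.316 to 0.492 CPM in Clrn1-/- and 0.386 to 0.464 CPM in Clrn1-/-Clrn2-/-. It had 10 to 19 counts per library in Clrn1-/- and 13 to 18 in Clrn1-/-Clrn2-/-. In Clrn1-/-Clrn2-/-, Tbx2 was higher, at 93.5 to 101 against 83.1 to 86.5 CPM in wild-type. Otof overlapped there, at 103 to 111 against 88.0 to 110 CPM, and Slc7a14 was lower, at 100 to 103 against 137 to 141 CPM. The part of each marker in the values relative to the 5 was not tested.

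The genes whose log2 level was most like that of each member over the 12 libraries were taken from 15405 tested genes whose mean reached 1 CPM. They are a description of likeness, since all follow the same genotypes. For Chrna9 the nearest were Tmc1 (r = 0.978), a pore subunit of the mechanotransduction channel, Otog (0.977), a glycoprotein gene of the tectorial membrane, Gdf6 (0.974), Id1 (0.969) and Tspan31 (0.965). Tmc1 went from a mean of 12.4 CPM in wild-type to 19.2, 21.8 and 24.5 CPM in Clrn1-/-, Clrn2-/- and Clrn1-/-Clrn2-/-. Ocm was nearest to Lcp1 (0.970), an actin-bundling plastin, then Tspan31, Rnd2, Otogl and Strc (0.956). Among the 5 nearest to Slc26a5 were 1110004F10Rik (0.953), Lcp1, Strc and Slc8a2 (0.941). Strc, which encodes stereocilin of the links between stereocilia, was thus among the 5 nearest genes of both outer hair cell markers.

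Chrna10 had other neighbours, namely Tcte2 (r = 0.956), Kncn (0.953), Uqcrq (0.937), Carmil3 (0.935) and Fcrlb (0.931). Kncn, which encodes the hair cell protein kinocilin, was at a mean of 19.9 CPM in wild-type and at 9.90, 18.5 and 13.9 CPM in Clrn1-/-, Clrn2-/- and Clrn1-/-Clrn2-/-. Its pattern, lowest in Clrn1-/- and nearest to wild-type in Clrn2-/-, was that of Chrna10. Kcnn2 was nearest to Grin2d (0.948), an NMDA receptor subunit gene, then Inpp5e, Cog1, Sh3gl3 and Yae1d1 (0.934).

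Of the 10 other outer hair cell genes listed, 3, 3 and 5 were called in Clrn1-/-, Clrn2-/- and Clrn1-/-Clrn2-/-, in both directions. Over all genes, 7.22%, 2.66% and 9.90% were called. The median log2 fold change of the list was 0.17, 0.14 and 0.10, beside -0.0031, -0.0025 and 0.0010 for all genes. Lmod3, a leiomodin that organizes actin, was at 1.52 to 1.90 CPM in wild-type and at 4.32 to 9.62 CPM in the mutants, and rose by 1.67, 1.63 and 2.24 on the log2 scale. Lbh, a transcriptional regulator, fell by 0.90, 0.75 and 0.78. Strc rose in Clrn2-/- and Clrn1-/-Clrn2-/-, by 0.68 and 0.65, and Aqp11, a water channel gene, rose in Clrn1-/-Clrn2-/- by 0.80. Ikzf2, which encodes the transcription factor helios of outer hair cells, was at 9.72 to 10.2 CPM in wild-type and at 10.0 to 14.3 CPM in the mutants without a call.

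Among 14 other nicotinic receptor subunits, 10 were tested, and 2, 2 and 5 were called in Clrn1-/-, Clrn2-/- and Clrn1-/-Clrn2-/-. The share called over all genes was 7.22%, 2.66% and 9.90%. The list's median was -0.07, -0.48 and -0.50. Chrna1, the alpha subunit of the muscle receptor, was at 1.77 to 3.09 CPM in wild-type and 4.56 to 8.83 CPM in the mutants, and rose by 1.38, 1.05 and 1.77 on the log2 scale. Chrna4, a neuronal subunit, fell by 1.64, 1.42 and 1.91. In Clrn1-/-Clrn2-/-, Chrna6 and Chrnb3 fell by 3.48 and 2.65 and Chrnb4 rose by 1.06, each with libraries overlapping with wild-type. Wild-type replicate 3 stood apart for Chrna6 and Chrnb3, with 4 and 3 counts against 81 to 153 in the other wild-type libraries. Markers of neurons summed to 11500 to 12592 CPM in wild-type and to 7948 to 8088 CPM in Clrn1-/-Clrn2-/-, and their part in the neuronal subunits was not tested. Of 10 receptor assembly and clustering genes, such as Rapsn, 0 were called in any mutant. By the adjusted p alone 1, 2 and 5 passed, against 26.9%, 14.2% and 37.0% of all genes.

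Of 10 calcium-activated potassium channel and calmodulin genes tested, 1, 0 and 2 were called in Clrn1-/-, Clrn2-/- and Clrn1-/-Clrn2-/-, against 7.22%, 2.66% and 9.90% of all genes. The median of this list was -0.0021, -0.07 and -0.26. By adjusted p alone 4, 3 and 5 of its genes passed, against 26.9%, 14.2% and 37.0% of all genes. Kcnmb2, an accessory subunit of BK channels, rose by 1.12 in Clrn1-/- and 1.04 in Clrn1-/-Clrn2-/-, and Kcnn1, the SK1 gene, fell by 0.72 in Clrn1-/-Clrn2-/-. Of 8 calcium store genes, Ryr1 alone was called, in all 3 mutants. Ryr1, a calcium release channel best known from skeletal muscle, was at 0.309 to 0.520 CPM in wild-type, from 11 to 19 counts, and at 4.04 to 9.02 CPM in the mutants, and rose by 3.86, 3.52 and 4.35 on the log2 scale. A list of 10 skeletal muscle markers such as Acta1 and Ckm summed to 3.59 to 4.89 CPM in wild-type and 3.38 to 3.65, 3.54 to 4.74 and 2.62 to 3.97 CPM in Clrn1-/-, Clrn2-/- and Clrn1-/-Clrn2-/-, with list medians of -0.28, 0.26 and -0.29 on the log2 scale. Their part in the values of Ryr1, Chrna1 and Lmod3 was not tested.

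Genes for making and loading the transmitter on the axon side of the synapse were barely sampled. The cell bodies of efferent neurons lie in the brainstem, and their part in this was not tested. Chat and Slc18a3, which make and load acetylcholine, had 0 to 4 counts per library and were not tested. Ache, which breaks acetylcholine down, fell by 0.60 in Clrn2-/- and 1.15 in Clrn1-/-Clrn2-/-, from 113 to 119 CPM in wild-type to 50.1 to 53.6 CPM in the double mutants. In Clrn1-/- Ache was at 72.3 to 89.9 CPM, also below every wild-type library, but was not called by both criteria. Calca, which encodes the co-transmitter CGRP, rose by 1.07 in Clrn1-/-, where it was at 1.04 to 1.14 CPM against 0.253 to 0.955 CPM in wild-type.

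In the family of the motor gene, 1 of 8 other Slc26 transporters tested was called, in Clrn1-/-Clrn2-/- alone, where 9.90% of all genes were. Slc26a4, which encodes pendrin, rose by 1.08 in Clrn1-/-Clrn2-/-, from 46.7 to 61.1 CPM in wild-type to 114 to 121 CPM. Among 5 other calcium buffers tested, S100b fell by 0.61 in Clrn1-/- and 0.85 in Clrn1-/-Clrn2-/-, and in the latter Calb2, the gene of calretinin, fell by 0.73 and S100a1 rose by 0.67. Ocm was thus higher in all 3 mutants while the median of the other buffers was -0.27, -0.11 and -0.52.

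**Figure D5:**
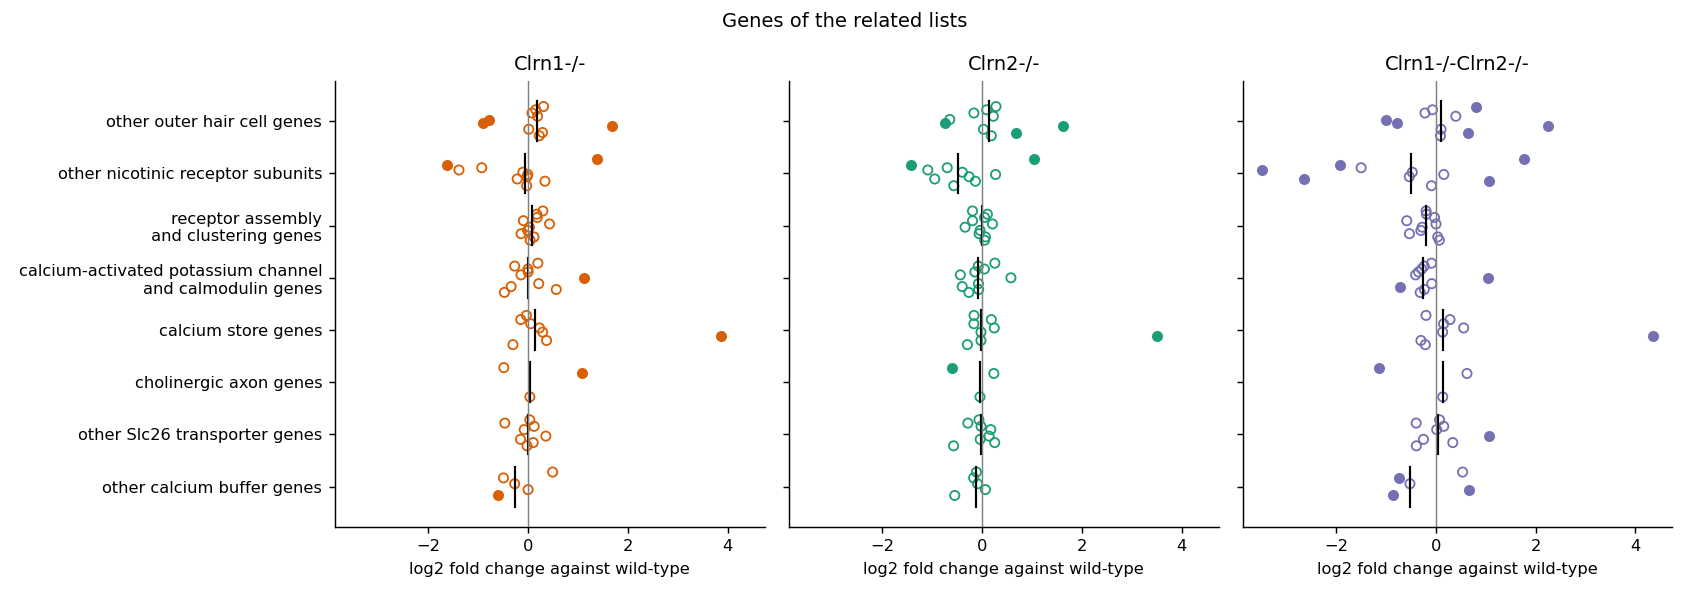
Log2 fold change against wild-type (horizontal axes) of the genes of 8 related lists in the 3 mutants. Filled points are called genes, open points are not, and black ticks are list medians. Ryr1 is the point at 3.52 or above among calcium store genes, and the list medians stay within 0.52 of 0.

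Other cell types also differed between genotypes. Red blood cell markers, haemoglobin genes and Alas2, summed to 700 to 1139 CPM in wild-type, 278 to 379 in Clrn1-/-, 426 to 642 in Clrn2-/- and 535 to 714 in Clrn1-/-Clrn2-/-. Macrophage markers such as Cd68 summed to 108 to 140 CPM in wild-type and were at 168 to 197 CPM in Clrn1-/- and Clrn1-/-Clrn2-/-. Supporting cell markers summed to 1854 to 2171 CPM in the other genotypes and to 2355 to 2450 CPM in Clrn1-/-Clrn2-/-. Against wild-type, 8 of these 10 were higher there and 1 lower by adjusted p. Prox1 went down, to 56.4 to 60.9 CPM from 101 to 109 CPM in wild-type. Neuronal markers summed to 11500 to 12592 CPM in wild-type, 10653 to 11071 in Clrn1-/-, 9918 to 11449 in Clrn2-/- and 7948 to 8088 in Clrn1-/-Clrn2-/-. In Clrn1-/-Clrn2-/-, 7 of 10 were lower and 1 higher by adjusted p, where 37.0% of all genes passed in either direction. Prph went up, from 3.01 to 6.15 CPM in wild-type to 9.20 to 10.0 CPM in Clrn1-/-Clrn2-/-. The part of these cell types in the changes of the 5 genes, and of neurons in those of Ache and Calb2, was not tested.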

How the data were processed

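RNA was measured in 12 libraries of mouse organ of Corti. The authors counted paired, strand-specific reads per gene with STAR on GRCm38.p6 (Gencode vM24), and the deposited values are counts without normalization or pooling. The submitters' processing notes also name DESeq2, which leaves no trace in these counts. Reads not assigned to a gene, being unmapped, mapped to several places, outside genes or ambiguous, were left out. They made up 13.5% to 15.8% of a library. Of the count columns, the one matching the strand of the kit was used (95.2% to 95.6% of stranded reads). Libraries were grouped by their genotype labels.

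The tests were run with edgeR 4.0.16 in R 4.3.3. Genes passing filterByExpr (minimum count 10) numbered 19052. Libraries were scaled by TMM and fitted together with genotype alone, with quasi-likelihood tests and Benjamini-Hochberg adjustment over all genes. A call needed an adjusted p of at most 0.05 and 1.5-fold. Standard errors came from the test statistic. The authors used limma-voom, which was an alternative here (limma 3.58.1) beside DESeq2 1.42.0, library size alone, no filter, an FPKM filter of 0.1, the 2 genotypes alone, a replicate block, unstranded counts, omission of the fold minimum and omission of each library in turn. The code was tested on simulated data. Coordinates and exon lengths came from Gencode M21 of the same build, where all 152 listed genes matched by symbol. Promoter stretches came from RefSeq (GRCm38.p6), for 4 of the 5 genes.

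The 5 genes and all lists were chosen with earlier results of these data known. Listed genes were named if called, up to 3 per direction, and markers where their list moved with a member. Genes that these rules name but the text does not are not reported here. The labels number the libraries 1 to 3 in every genotype and do not say what a number shares. Deviations from the genotype mean, over 12453 genes, had a correlation over 0.1 in 7 of the 18 pairs of libraries with the same number. Only for wild-type and Clrn1-/- did every pair exceed 0.1 (0.269, 0.126 and 0.105).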

Additional observations from a re-analysis of the deposited data

Results flagged for a closer look

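Chrna10 differed between the single mutants in a direct test, with a log2 fold change of -0.60 in Clrn1-/- against Clrn2-/- (edgeR adjusted p = 0.00356), as described above with the libraries it rests on.

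For 8 genes of the related lists, the change in Clrn1-/-Clrn2-/- mice differed from the sum of the changes in the single mutants, by the interaction term of the edgeR fit over all genes. By both criteria, 5.50% of all genes were called for this term. It includes the wild-type libraries, so breeding and genotype cannot be told apart in it. The term was negative for Ryr1 at -3.02 (edgeR adjusted p = 3.0e-06), Lmod3 at -1.06 (edgeR adjusted p = 0.00742), Chrna1 at -0.66 (edgeR adjusted p = 0.0407) and Kcnmb2 at -0.66 (edgeR adjusted p = 0.00489). These 4 genes were higher in value in every mutant than in wild-type, and in the double mutants they stayed below the sum. Ryr2, the ryanodine receptor at the higher level here, had a term of -0.65 (edgeR adjusted p = 4.9e-05), being at 51.9 to 57.5 CPM in Clrn1-/- and at 33.3 to 36.5 CPM in Clrn1-/-Clrn2-/-. The term was positive for Chrna4 at 1.15 (edgeR adjusted p = 0.0199) and Lbh at 0.86 (edgeR adjusted p = 8.7e-05), which were lower in every mutant. S100a1 had a term of 0.61 (edgeR adjusted p = 9.5e-04), at 395 to 491 CPM in wild-type and the single mutants and 655 to 697 CPM in Clrn1-/-Clrn2-/-. Groups of 3 libraries were not tested for single deviating libraries.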

How the results depend on the processing

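With limma-voom, DESeq2, the FPKM filter, the compared genotypes alone or the replicate block, no call of a member by both criteria changed. Other settings changed some. Without a fold minimum, the calls gained against wild-type were Ocm (0.51), Chrna9 (0.54) and Kcnn2 (-0.18) in Clrn1-/-, Slc26a5 (0.53) and Kcnn2 (-0.37) in Clrn2-/-, and Slc26a5 (0.55), Chrna10 (-0.47) and Kcnn2 (-0.41) in Clrn1-/-Clrn2-/-, on the log2 scale. Members called then numbered 4, 4 and 5 against wild-type, 4 for Clrn1-/-Clrn2-/- against Clrn1-/- and 3 for Clrn1-/- against Clrn2-/-, and genes of the related lists numbered 13 higher and 10 lower in Clrn1-/-, 8 and 12 in Clrn2-/-, and 15 and 23 in Clrn1-/-Clrn2-/-. Scaling by library size alone called Slc26a5 in Clrn1-/-Clrn2-/- (0.59), unstranded counts called 1 member for the interaction, and without a filter on low counts 6 listed genes were lower in Clrn2-/-. With each library left out in turn, the log2 fold change ranged from 0.34 to 0.61 for Ocm in Clrn1-/-, from 0.49 to 0.61 for Chrna9 in Clrn1-/- and from 0.36 to 0.67 for Slc26a5 in Clrn2-/-. Members called ranged from 1 to 3 for Clrn1-/- and from 2 to 3 for Clrn2-/- against wild-type, from 0 to 1 for Clrn1-/-Clrn2-/- against Clrn1-/- (1 without Clrn1-/- replicate 3), from 0 to 1 for Clrn1-/- against Clrn2-/- and from 0 to 1 for the interaction. Listed genes lower ranged from 2 to 4 for Clrn1-/- and from 2 to 5 for Clrn2-/-. The cause of these differences was not tested.

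Relative to inner hair cell markers in place of markers of both types, every value moved. In Clrn1-/-, Clrn2-/- and Clrn1-/-Clrn2-/- it was 0.83, 0.55 and 0.96 for Slc26a5, 1.21, 0.87 and 1.38 for Ocm, and 1.24, 0.79 and 1.40 for Chrna9. For Chrna10 it was -0.0772, -0.14 and -0.0554, and for Kcnn2 0.53, -0.33 and 0.0046. The sign of Kcnn2 thus turned in Clrn1-/-, and in Clrn1-/-Clrn2-/- Kcnn2 was level with wild-type. With unstranded counts, Chrna10 relative to the markers of both types was at -0.49 in Clrn1-/-Clrn2-/-.

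With the replicate block, log2 fold changes in Clrn1-/- were 0.50 for Ocm, 0.53 for Chrna9, -0.78 for Chrna10 and -0.18 for Kcnn2, and no call by both criteria changed in any comparison. By adjusted p alone the block let Chrna10 pass in Clrn1-/-Clrn2-/- against Clrn1-/- (0.31, edgeR adjusted p = 0.0429) and Ocm in Clrn1-/- against Clrn2-/- (-0.33, edgeR adjusted p = 0.0124), and let the interaction pass for Ocm (edgeR adjusted p = 0.0483) and Chrna10 (edgeR adjusted p = 0.0366). Kcnn2 in Clrn1-/- against Clrn2-/- was lost (0.19, edgeR adjusted p = 0.0598). Depth limits Chrna9 most, at 137 to 315 counts per library, and leaves the cholinergic axon genes Chat and Slc18a3 untested.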
